A study of Mus musculus with 12 samples.

Results

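The xenobiotic metabolism enzyme genes described here are 89 of the 17097 mouse genes measured in sorted cells of the small intestine. They were chosen by annotated symbol: cytochrome P450 genes of families Cyp1 to Cyp4, UDP-glucuronosyltransferase genes Ugt1 and Ugt2, glutathione S-transferase genes (Gst of the alpha, kappa, mu, omega, pi, theta and zeta classes) and sulfotransferase genes (Sult). The set holds 3 Cyp1, 29 Cyp2, 6 Cyp3, 13 Cyp4, 16 Gst, 9 Ugt and 13 Sult genes, each read from its brightest probe set that names a single gene. The rule itself uses no measured difference, but it was set with earlier results of these data known. Cells were isolated as 6 populations: Mex3a-high, Mex3a-low and Mex3a-negative cells with high Lgr5, and the same 3 Mex3a gates with low Lgr5. Each population came from the 2 biological replicates MR793 and MR820, so that 12 Affymetrix arrays give n = 2 per population. All cells were untreated primary cells, with 2000 cells per sample and 22 amplification cycles. The sources used here give neither the strain, genotype and age of the mice nor the means by which cells were isolated by Mex3a level. They do not state whether a replicate was 1 mouse or a pool, and p-values measure only the spread between these samples.

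Foreign chemicals and many endogenous lipids, steroids and bile pigments are cleared by enzymes that work in sequence. Cytochromes P450 first oxidise the molecule, and transferases then attach glutathione, glucuronic acid or sulfate, after which efflux pumps export the product. In the gut these enzymes are known mainly from the absorptive enterocytes that line the villus, where they meet ingested compounds before the liver does, while Lgr5 is a marker of intestinal stem cells, which sit at the base of the crypts, and Mex3a encodes an RNA-binding protein.

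Levels are RMA values, a log2 scale on which a difference of 1 is a 2-fold difference, and differences are taken between arrays for the same gene. Differences were tested with limma over all genes, with the Benjamini-Hochberg method, and a gene is called at an adjusted p under 0.05. The MR793 array of Mex3a-high Lgr5-high cells was unlike the rest. It correlated with them at 0.892 to 0.914, against 0.966 to 0.996 among the other 11 arrays, and is called the array apart. On it the dim members lay 0.29 above, and the bright members 0.22 below, the median of the other arrays, so results are also given without it. Lgr5 lay at 9.0 to 10.21 on Lgr5-high arrays, against 6.37 to 8.05 on Lgr5-low arrays (difference 2.61 ± 0.23 SE, limma adjusted p = 0.000843), while Mex3a lay at 5.44 to 6.35 on all 12 arrays and did not separate its gates (Mex3a-high minus Mex3a-negative 0.29 in Lgr5-high and 0.12 in Lgr5-low cells, limma adjusted p = 0.505 and 1.00). Of the 3 array strips, strip 1 held 4 Lgr5-high arrays, strip 3 held 4 Lgr5-low arrays and strip 2 held 2 of each, so that the Lgr5 gate and the strip can hardly be told apart. Strip 2 held arrays of MR820 only, so a strip block also takes up part of the difference between the replicates. The mean of 17 measured enterocyte markers was 8.24 to 10.80 and that of 9 stem cell markers 9.07 to 10.77. The mean of 7 liver and pancreas markers was 5.67 to 6.35 on every array, with Alb at 5.57 to 7.10. Ttr, the brightest of them, ran from 8.42 to 10.13. It lay at 10.13 and 9.29 in Mex3a-high and at 8.48 and 8.42 in Mex3a-negative Lgr5-low cells. Between these 2 populations 6 of the 7 were positive and 1 was called higher, where 1.71% of all genes were. Values of different probe sets are signals, not amounts, so these lists are set side by side as a description. In bulk samples fewer cells of a type and less RNA per cell cannot be told apart.

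Promoter sequences are shown for the members on which the results below turn and for 2 members that hold a rare motif. They are the 250 bases before the annotated start, 5′ to 3′, from RefSeq (build GRCm38.p6), and 74 members matched that table. Capitals mark a motif found on either strand: GCGTG, the core of the xenobiotic response element, in the Gstp1 and Gstp3 windows, CAAAGTCCA, an HNF4 site, in the Cyp3a11 window, and an HNF1 site on the other strand in the Ugt1a9 window. The Cyp4b1 and Cyp2e1 windows held none of the 5 motifs searched, which also included TGACNNNGC, the antioxidant response element core, and TTTATNG, a CDX site. The letters are a description and show no binding.
Cyp4b1, chr4:115647722-115647971, minus strand: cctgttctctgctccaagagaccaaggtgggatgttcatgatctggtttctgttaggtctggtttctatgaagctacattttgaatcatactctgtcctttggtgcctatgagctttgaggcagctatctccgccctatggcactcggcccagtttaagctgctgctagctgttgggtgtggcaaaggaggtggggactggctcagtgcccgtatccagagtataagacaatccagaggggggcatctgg
Cyp2e1, chr7:140763569-140763818, plus strand: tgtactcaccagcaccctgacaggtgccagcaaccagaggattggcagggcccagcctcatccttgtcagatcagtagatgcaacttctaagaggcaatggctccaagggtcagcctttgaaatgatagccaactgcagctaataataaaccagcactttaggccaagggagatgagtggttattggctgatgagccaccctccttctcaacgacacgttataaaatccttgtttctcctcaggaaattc
Gstp1, chr19:4037913-4038162, minus strand: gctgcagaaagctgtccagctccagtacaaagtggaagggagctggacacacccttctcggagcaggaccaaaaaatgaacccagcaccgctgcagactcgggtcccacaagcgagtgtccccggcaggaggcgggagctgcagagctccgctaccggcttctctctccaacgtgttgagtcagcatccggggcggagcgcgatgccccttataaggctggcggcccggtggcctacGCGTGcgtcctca
Gstp3, chr19:4059448-4059697, minus strand: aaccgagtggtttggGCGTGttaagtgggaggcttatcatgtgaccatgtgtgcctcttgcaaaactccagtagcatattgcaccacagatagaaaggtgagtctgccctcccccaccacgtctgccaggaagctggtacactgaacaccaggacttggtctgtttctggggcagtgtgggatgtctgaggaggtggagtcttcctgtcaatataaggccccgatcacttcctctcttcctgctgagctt
Cyp3a11, chr5:145879855-145880104, minus strand: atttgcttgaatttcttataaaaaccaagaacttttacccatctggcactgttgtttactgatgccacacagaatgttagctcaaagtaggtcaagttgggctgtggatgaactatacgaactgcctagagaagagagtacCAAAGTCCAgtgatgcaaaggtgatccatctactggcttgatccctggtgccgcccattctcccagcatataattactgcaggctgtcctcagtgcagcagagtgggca
Ugt1a9, chr1:88070529-88070778, plus strand: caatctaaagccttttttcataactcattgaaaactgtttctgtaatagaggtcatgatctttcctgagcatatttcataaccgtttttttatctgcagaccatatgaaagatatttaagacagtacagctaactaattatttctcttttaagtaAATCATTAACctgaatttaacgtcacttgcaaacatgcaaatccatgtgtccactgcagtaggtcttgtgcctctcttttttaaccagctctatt

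Across the members' promoter windows, counted as 89 windows for 74 genes, the motif shares can be set beside all 32851 windows of the table. GCGTG stood in 19 member windows (21.3%), against 28.2% of all windows, and TGACNNNGC in 4 (4.49%), against 10.2%. CAAAGTCCA stood in the 4 windows of Cyp2c70, Cyp3a11, Cyp3a16 and Cyp3a41a (4.49%), against 0.384% of all windows, and 3 of these genes are paralogs of 1 cluster. The HNF1 site stood in the 2 windows of Sult1d1 and Ugt1a9 (2.25%), against 0.371%, and TTTATNG in 9 (10.1%), against 9.81%. The genes named here for holding a motif were picked by the search, not by the rule for named genes.

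The families are described first by the signal of their members, which is not an amount of RNA. Of the 16 Gst genes 15 lay above the median of all genes' mean levels (6.53), the exception being Gstm4, and so did 4 of 9 Ugt, 5 of 13 Cyp4, 3 of 29 Cyp2, 2 of 13 Sult, 1 of 6 Cyp3 and 0 of 3 Cyp1 genes. In all, 30 of 89 members lay above that median and 17 lay above the 75th percentile (8.37). RMA assigns a value even where nothing hybridised, so a low value need not be expression, and differences between dim members are compressed. Cyp1a1, the classic target of the aryl hydrocarbon receptor, lay at 4.60 to 4.85 on the 11 arrays other than the one apart. Cyp1a2 lay at 4.74 to 5.03 and Cyp1b1 at 4.53 to 4.70 on the same arrays. These 3 genes therefore varied by less than 0.5, as did 49 of the 89 members, while 15 members varied by more than 2.

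Bright members stood in both the oxidising and the conjugating families. Among the P450 genes they were Cyp2d26, Cyp2j6, whose relatives epoxidise arachidonic acid, Cyp2e1, Cyp3a13, Cyp4v3, a fatty acid hydroxylase gene, Cyp4f13, Cyp4f14 and Cyp4f16, of the family that hydroxylates leukotrienes and long-chain fatty acids, and Cyp4b1. Among the transferases, Ugt1a6a and Ugt1a9 conjugate phenols, Ugt2b34 and Ugt2b35 belong to the family that conjugates steroids and bile acids, and Sult1b1 and Sult1a1 sulfate phenols and thyroid hormone. The Ugt1a genes share their last exons, so a probe set in those exons reads all of them. The 2 Ugt1a6a probe sets differed between the Lgr5 gates by close amounts, -0.61 and -0.63. Gstp1, a pi-class transferase gene, was bright with a narrow spread, at 11.86 to 12.28 over all 12 arrays. The widest were Gsta2, an alpha-class gene, which ran over 5.43 on the 11 arrays, Cyp4b1 and Cyp2e1 over 3.75 each, and Cyp3a13 over 3.52.

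**Figure D1:**
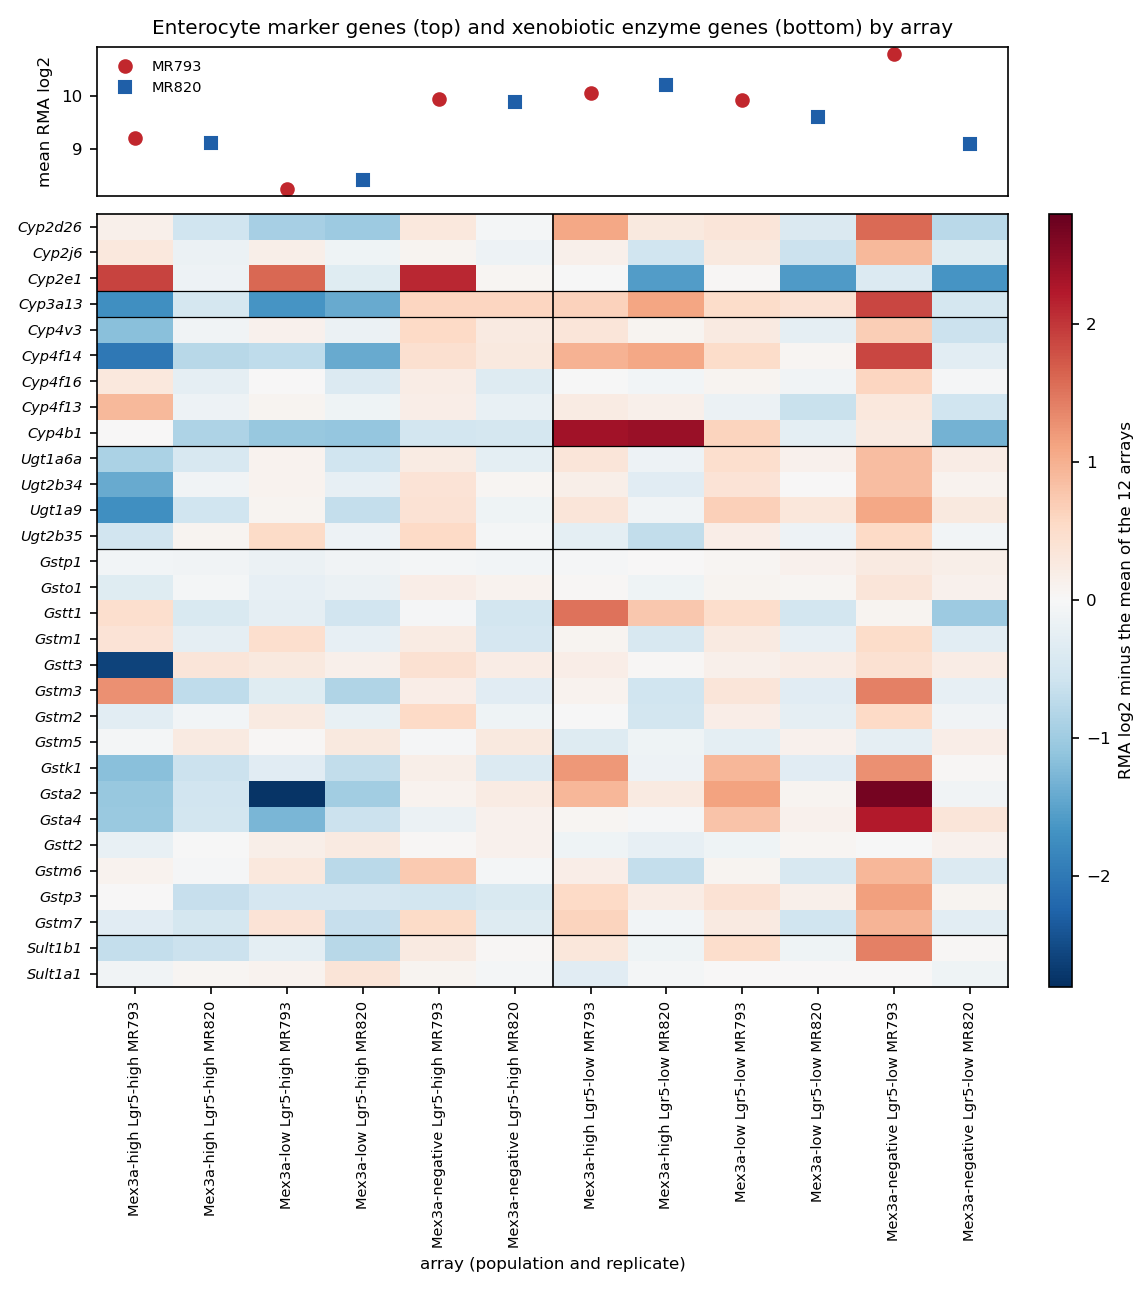
The 30 members whose mean lies above the median gene, as log2 RMA value minus each gene's mean over the 12 arrays, with arrays in columns from Mex3a-high to Mex3a-negative, Lgr5-high left and Lgr5-low right. The upper panel gives the mean level of the 17 measured enterocyte markers per array, which is 10.80 on the Mex3a-negative Lgr5-low array of MR793, the array on which 24 of the 30 genes were highest among the 11 arrays other than the one apart.

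Cyp4b1 was the member with the clearest difference between Mex3a gates. It encodes a P450 that oxidises fatty acids and activates some plant furans and aromatic amines. In Lgr5-low cells it lay at 9.12 in MR793 and 9.19 in MR820 in the Mex3a-high gate, at 7.40 and 6.50 in the Mex3a-low gate, and at 7.03 and 5.45 in the Mex3a-negative gate. The 2 Mex3a-high arrays lay above all other 10 arrays, and the Mex3a-low and Mex3a-negative values overlapped. In Lgr5-low cells Cyp4b1 rose by 2.92 ± 0.49 in the Mex3a-high gate relative to the Mex3a-negative gate (limma adjusted p = 0.0142, 2.09 in MR793 and 3.75 in MR820).

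Cyp4b1 was the 1 of 89 members called higher in that comparison, where 1.71% of all genes were called higher, and 0 members were called lower, where 0.0117% of all genes were. With the replicate as a block the called members were Cyp4b1 and Gstt1 (2.02% of genes higher), and without the array apart Cyp4b1 alone was called higher (4.06% of genes) and 0 members lower (1.23%). In the fits without 1 array the call was lost without the Mex3a-high Lgr5-low array of MR793 (adjusted p = 0.117) or that of MR820 (0.106), and without the Mex3a-negative Lgr5-low array of MR820 (2.12, adjusted p = 0.0796). It was kept in 19 of the 22 fits. Against Mex3a-low cells of the same gate, Cyp4b1 differed by 2.21 ± 0.49 (limma adjusted p = 0.109), and 0 members were called, where 0.889% of genes were called higher. With the replicate as a block the difference passed (adjusted p = 0.0485, with 0.983% of genes called higher), as it did without the array apart (0.0349, with 2.37% higher and 0.0877% lower). At an unadjusted p under 0.05 there were 2 members in that comparison, Cyp4b1 and Gstt1 (4.66% of genes). The arrays of 13 members were higher and those of 10 lower without overlap, where 20.4% of genes were in each direction. The Mex3a-low minus Mex3a-negative difference was 0.71 ± 0.49 (adjusted p = 1.00).

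In Lgr5-high cells Cyp4b1 showed no such order. It lay at 6.79 in MR793 and 5.92 in MR820 in Mex3a-high cells, at 5.73 and 5.69 in Mex3a-low cells, and at 6.26 and 6.28 in Mex3a-negative cells. The Mex3a-high and Mex3a-negative arrays overlapped, with a difference of 0.08 ± 0.49 (adjusted p = 0.928), or -0.35 without the array apart. The Mex3a-high minus Mex3a-negative difference in Lgr5-high cells, less that in Lgr5-low cells, was -2.84 ± 0.69 for Cyp4b1 and did not pass the test (limma adjusted p = 0.262). For this contrast limma called 0 members, where 0.398% of genes were called lower, and 1 member, Cyp4b1, had an unadjusted p under 0.05 (3.71% of genes). It passed in a fit with the replicate as a block and the array apart left out (-3.03, adjusted p = 0.0182), an alternative chosen after seeing the data.

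Gstt1, a theta-class transferase gene whose enzyme conjugates small halogenated compounds, had the same order of gates in Lgr5-low cells. It lay at 11.25 in MR793 and 10.49 in MR820 in Mex3a-high cells, at 10.24 and 9.22 in Mex3a-low cells, and at 9.80 and 8.71 in Mex3a-negative cells. Within each replicate the Mex3a-high array was highest, and the Mex3a-high arrays did not overlap the others of this gate. Gstt1 differed between Mex3a-high and Mex3a-negative Lgr5-low cells by 1.61 ± 0.48 (1.44 in MR793, 1.78 in MR820), which did not pass the test in the fit of population means (limma adjusted p = 0.243). A fit that kept the replicate as a block called it (adjusted p = 0.00584), as did fits with a strip block (2.06, adjusted p = 0.0314) and with array weights (adjusted p = 0.0348). In Lgr5-high cells Gstt1 lay at 10.21 in MR793 and 9.30 in MR820 in the Mex3a-high gate. It lay at 9.50 and 9.20 in the Mex3a-low gate and at 9.71 and 9.23 in the Mex3a-negative gate. These gates overlapped across replicates. Within each replicate the Mex3a-high array was highest here as well, narrowly in MR820, and in MR793 it is the array apart.

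Markers of 3 of the 4 secretory cell types followed moved with these 2 genes between the same populations. The mean of 8 tuft cell markers was 10.29 and 10.30 on the Mex3a-high Lgr5-low arrays, 8.35 and 7.42 on the Mex3a-low and 5.56 and 5.55 on the Mex3a-negative ones. All 8 measured tuft cell markers, 9 of 10 enteroendocrine markers and 3 of 5 measured Paneth cell markers were called higher in Mex3a-high Lgr5-low cells relative to Mex3a-negative ones, with median differences of 5.03, 3.90 and 2.95. Of the 7 measured goblet cell markers 0 were called and 3 were positive, with a median of -0.03. Of 8 measured immune cell markers 2 were called higher and 6 were positive, with a median of 0.03. One of the 8, Ptprc, lay at 6.20 and 5.46 in Mex3a-high and at 3.96 and 4.04 in Mex3a-negative Lgr5-low cells. The part of these cell types in the values of Cyp4b1 and Gstt1 was not tested. In Lgr5-high cells the tuft cell markers had means of 7.41 and 7.10 in the Mex3a-high gate, against 5.46 and 5.28 in the Mex3a-negative gate.

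Among the other members of the comparison of Mex3a-high with Mex3a-negative Lgr5-low cells, no negative difference was called with all arrays in the fit of population means. Of all 89 members 59 had negative differences, beside 9178 of the 17097 genes, and the members' median was -0.11 in MR793 and 0.01 in MR820. All Gst genes but Gstt1, 15 of 16, and 7 of 9 Ugt genes had negative differences, with medians of -0.24 and -0.55, while the 89 members together had a median of -0.05 and all genes one of -0.01. The lowest values were those of Gsta4, the alpha-class gene for conjugation of lipid aldehydes, at -1.26 ± 0.53 (adjusted p = 0.674), and of Ugt2b5, at -0.89 ± 0.73 (adjusted p = 1.00). The size differed between the replicates: the difference of Gsta4 was -2.16 in MR793, against -0.37 in MR820, and that of Ugt2b5 -1.37 and -0.42. Of the 17 measured enterocyte markers 10 were positive in this comparison and 0 were called, with a median of 0.06. Their median was -0.79 in MR793 and 1.09 in MR820. The part of enterocytes in the enzyme values was not tested. Negative differences of members were called in 2 of the alternatives, and 1 of these leaves MR793 alone in the Mex3a-negative Lgr5-low population. With the replicate as a block and the array apart left out, the alternative chosen after seeing the data, 7 members were called lower (5.26% of genes lower, 6.63% higher): Ugt2b35 (-0.73), Ugt2b34 (-0.56), Ugt1a6a (-0.44), Ugt1a9 (-0.55), Gstm2 (-0.48), Gstp1 (-0.23) and Gstm3 (-0.82), with adjusted p from 0.00188 to 0.0388. Gstm2 falls outside the rule for named genes. In the other alternative, without the Mex3a-negative Lgr5-low array of MR820, Gsta4 differed by -2.21 and Cyp3a25 by -1.86. These values rest on the single MR793 array of that population, where Cyp3a25 lay at 6.67. Within MR820, Cyp3a25 went the other way, at 4.84 in Mex3a-high and 4.44 in Mex3a-negative Lgr5-low cells. With all arrays, 3 members had an unadjusted p under 0.05, Cyp4b1, Gstt1 and Gsta4 (3.37%), against 6.7% of all genes. The arrays did not overlap for 8 members that were higher (8.99%, against 21.1% of all genes) and 15 that were lower (16.9%, against 24.2%).

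**Figure D2:**
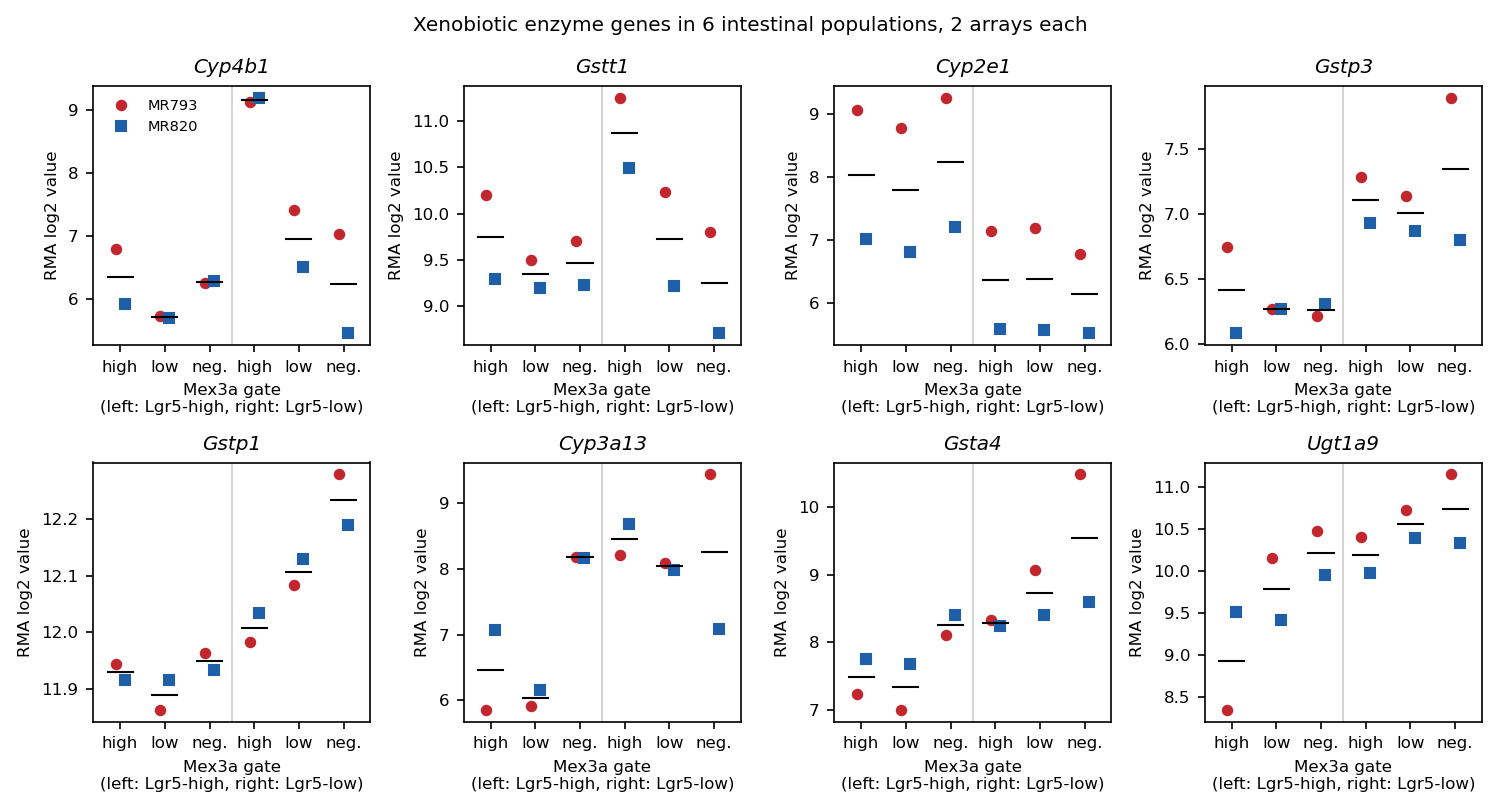
Log2 RMA values of 8 members on every array, with Mex3a-high, Mex3a-low and Mex3a-negative from left to right within Lgr5-high (left) and Lgr5-low (right). Points are single arrays of MR793 and MR820 and black lines are the means of 2 arrays; Cyp4b1 is at 9.12 and 9.19 in Mex3a-high Lgr5-low cells and at no more than 7.40 elsewhere.

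Between the Lgr5 gates, Cyp2e1 was the member with the largest positive difference, and it stood higher in Lgr5-high cells in each pair of arrays. Its P450 oxidises ethanol, acetone and other small molecules. In Lgr5-high cells it lay at 9.06 in MR793 and 7.02 in MR820 in the Mex3a-high gate, at 8.78 and 6.81 in the Mex3a-low gate, and at 9.26 and 7.22 in the Mex3a-negative gate. In Lgr5-low cells it lay at 7.14 and 5.60, at 7.19 and 5.57, and at 6.78 and 5.52 in the same order of gates. Within each replicate all Lgr5-high arrays lay above all Lgr5-low arrays. Across replicates the gates overlapped, because MR793 lay above MR820 in each population.

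The Lgr5-high minus Lgr5-low difference of Cyp2e1 was 1.73 ± 0.58 (limma adjusted p = 0.277, with a range of 1.25 to 2.48 over the 6 pairs). With the replicate as a block the same difference had an SE of 0.13 and was called (adjusted p = 0.00113). The only pair on a common strip, the Mex3a-high arrays of MR820 on strip 2, differed by 1.42. A fit with a strip block also gave 1.42 (adjusted p = 1.00). Between the Mex3a-high and Mex3a-negative gates Cyp2e1 differed by -0.20 ± 1.01 in Lgr5-high cells (-0.20 within each replicate) and by 0.22 ± 1.01 in Lgr5-low cells, and neither passed the test.

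Gstp1 and Gstp3, neighbouring pi-class transferase genes whose windows are shown above, were the 2 members whose 6 Lgr5-high arrays all lay below the 6 Lgr5-low arrays (2.25%, against 1.74% of all genes), and 0 members had all arrays above (1.3% of all genes). Gstp3 ran from 6.08 to 6.75 with a median of 6.27 in Lgr5-high cells, against 6.80 to 7.89 with a median of 7.04 in Lgr5-low cells. Its difference was -0.84 ± 0.20 (limma adjusted p = 0.0966), and it was called in the fit with a replicate block (0.0437) and without the array apart (-0.95, adjusted p = 0.0209). Gstp1 ran from 11.86 to 11.96 in Lgr5-high cells, against 11.98 to 12.28 in Lgr5-low cells, a small difference of -0.19 ± 0.06 (adjusted p = 0.212, and 0.0184 without the array apart). The pair on strip 2 differed by -0.85 for Gstp3 and by -0.12 for Gstp1. The pi-class genes are similar in sequence, and whether probes are shared between them was not tested.

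Limma called 0 of 89 members between the Lgr5 gates, where it called 0.252% of all genes higher and 1.13% lower in Lgr5-high cells. At an unadjusted p under 0.05 there were 16 of 89 members, against 11.6% of all genes, 12 of them lower in Lgr5-high cells. With the replicate as a block 3 members were called: Cyp2e1 (higher, where 0.474% of genes were), and Cyp4b1 and Gstp3 (lower, where 1.56% were). Without the array apart the 3 called were Cyp4b1, Gstp1 and Gstp3, all lower (3.3% of genes). Cyp4b1 differed by -1.34 ± 0.28 (adjusted p = 0.0601), a difference that was largest in the Mex3a-high gate, in which the MR820 pair on strip 2 differed by -3.28. In the Mex3a-negative gate its pairs had opposite signs, -0.78 in MR793 and 0.84 in MR820, with a mean of 0.03.

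The remaining larger differences between the Lgr5 gates were negative and did not pass the test with all arrays. Alpha-class transferase genes were among them, with Gsta2 at -1.65 ± 0.48 (adjusted p = 0.192) and Gsta4 at -1.16 ± 0.31 (0.137). A second, dimmer Gsta2 probe set differed by only -0.11, and the alpha-class genes are similar enough that probes may be shared. Of the P450 genes, Cyp4f14 differed by -1.40 ± 0.36 (adjusted p = 0.127) and Cyp3a13, of the family that oxidises many drugs, by -1.36 ± 0.37 (0.154). Gstk1, which encodes a mitochondrial and peroxisomal transferase, differed by -1.0 ± 0.33 (0.267), or by -0.12 in a fit with a strip block. The glucuronosyltransferase genes Ugt1a9 and Ugt1a6a differed by -0.86 ± 0.25 (0.186) and -0.61 ± 0.18 (0.205), and the sulfotransferase gene Sult1b1 by -0.68 ± 0.24 (0.293). On strip 2 the Mex3a-high pair of MR820 had the same sign for these 8 genes, from -0.29 for Ugt1a6a to -1.86 for Cyp4f14. Sult1d1, Ugt2a3, Cyp2d26 and Cyp3a11, also lower in Lgr5-high cells on average, differed in that pair by -0.14, -0.24, -0.85 and -1.46. The Mex3a-negative pair of MR820 was positive for Cyp3a13 (1.09), Cyp3a11 (0.78), Cyp2d26 (0.70), Cyp4f14 (0.56) and Gsta2 (0.34). The replicate block without the array apart called 14 members, 10 of them lower (6.69% of genes lower, 4.73% higher). Of the genes above, these were Ugt1a6a (-0.45, adjusted p = 0.000514), Ugt1a9 (-0.57, 0.000682), Gstk1 (-0.74, 0.00698), Cyp4f14 (-1.08, 0.0197), Sult1b1 (-0.56, 0.0198) and Gsta4 (-1.02, 0.0427).

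The direction over the 6 pairs of arrays was uniform for few members. Lower in Lgr5-high cells in all 6 pairs were 9 members (10.1%, against 6.95% of all genes): Gsta4, Gstk1, Gstp1, Gstp3, Sult1b1, Sult1d1, Ugt1a6a, Ugt1a9 and Ugt2a3. Higher in all 6 were 6 members (6.74%, against 5.95%): Cyp2d10, Cyp2e1, Cyp4f15, Cyp4f18, Gstm5 and Sult1a1, of which Cyp4f18 falls outside the rule for named genes. Without the Mex3a-negative Lgr5-low array of MR820, that population is MR793 alone, the array on which many members were highest. The differences of that fit rest in part on this array, so only their sizes are given. Among the negative ones were Cyp3a11 (-1.06), Cyp3a13 (-1.75), Cyp3a25 (-0.69), Cyp4b1 (-1.60), Cyp4f14 (-1.76), Gsta2 (-2.12), Gsta4 (-1.47), Gstp3 (-1.02) and Sult1b1 (-0.90).

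**Figure D3:**
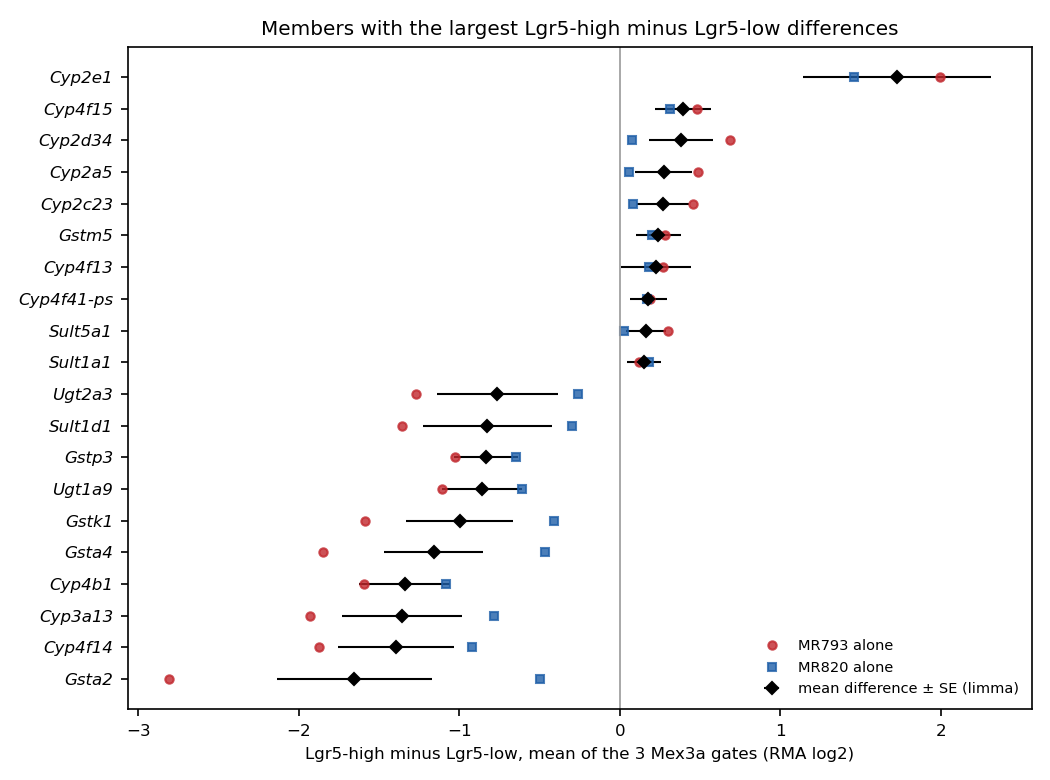
Lgr5-high minus Lgr5-low difference (log2) of the 20 members with the largest differences of the same sign in both replicates. Diamonds and bars give the limma estimate ± SE over the 3 Mex3a gates and points give the difference within MR793 and within MR820; Cyp2e1 is at 1.73 and Gsta2 at -1.65.

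Markers of several cell types moved with these genes between the Lgr5 gates. Enteroendocrine markers had a median difference of -1.90, with 7 of 10 called lower in Lgr5-high cells, and tuft cell markers one of -1.79, with 7 of 8 called lower. Of the 17 measured enterocyte markers, 16 were lower in Lgr5-high cells, with a median of -0.85, and 1 was called; the mean level over the list was 8.24 to 9.95 on Lgr5-high arrays, against 9.10 to 10.80 on Lgr5-low arrays. Goblet cell markers had a median of -1.26, with 3 of 7 called lower, stem cell markers one of 0.95, with 5 of 9 called higher, and Paneth cell markers one of 0.45, with 1 of 5 called higher. The part of these cell types in the enzyme differences was not tested.

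Among Lgr5-high cells, Cyp3a13, Cyp4f14 and Gsta2 were the members with the largest differences between Mex3a-low and Mex3a-negative cells. Cyp3a13 lay at 5.92 in MR793 and 6.15 in MR820 in Mex3a-low cells, against 8.18 and 8.17 in Mex3a-negative cells, with Mex3a-high cells at 5.86 and 7.08. All 4 Mex3a-high and Mex3a-low arrays lay below the 2 Mex3a-negative arrays. Cyp4f14 lay at 7.52 and 6.83 in Mex3a-low cells, against 8.68 and 8.51 in Mex3a-negative cells, with Mex3a-high cells at 6.24 and 7.46. Gsta2 lay at 5.68 and 7.45 in Mex3a-low cells, against 8.53 and 8.66 in Mex3a-negative cells. For these genes too the groups did not overlap.

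None of these differences passed the test. Cyp3a13 differed by -2.14 ± 0.64, Gsta2 by -2.03 ± 0.84 and Cyp4f14 by -1.42 ± 0.63 (limma adjusted p = 1.00 each). The value of Gsta2 was -1.14 without the Mex3a-low Lgr5-high array of MR793 and -1.12 over the mean of its probe sets. Limma called 0 members and 0 genes between the Mex3a-low and Mex3a-negative gates of Lgr5-high cells, and 0 members in each alternative run. At an unadjusted p under 0.05 these 3 members (3.37%) stood beside 0.462% of all genes. The arrays of 28 members (31.5%) lay lower in Mex3a-low cells without overlap, against 15.1% of all genes, and those of 11 (12.4%) lay higher, against 18.6%. All 6 Cyp3 genes had negative differences, with a median of -0.37, and so had 8 of 9 Ugt genes (-0.15) and 12 of 16 Gst genes (-0.17), beside a median of 0.01 for all genes.

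Within the Lgr5-high gate, Mex3a-high cells also lay below Mex3a-negative cells for Cyp3a13 and Cyp4f14, although this comparison holds the array apart. Without that array the Mex3a-high gate is MR820 alone, so the difference between the replicates enters the value. Cyp4f14 differed by -1.75 ± 0.63 (-1.14 without that array, -1.05 within MR820), Cyp3a13 by -1.71 ± 0.64 (-1.10, -1.09) and Ugt1a9 by -1.29 ± 0.43 (-0.70, -0.44), each with a limma adjusted p of 0.505. Limma called 0 members and 0 genes. It also called 0 members with the replicate as a block (0.0292% of genes higher) and without the array apart (0.0175% higher). There were 7 members (7.87%) at an unadjusted p under 0.05, against 3.87% of all genes. The other 4 were Cyp1a1 (0.33), Cyp4v3 (-1.03), Ugt2b34 (-0.96) and Gsto1 (-0.33), and without the array apart they were 0.13, -0.50, -0.30 and -0.19. The arrays of 18 members (20.2%, against 9.07% of all genes) were lower without overlap and those of 9 (10.1%, against 13.2%) higher. Between Mex3a-high and Mex3a-low Lgr5-high cells limma also called 0 members (0.00585% of genes higher without the array apart), with 2 at an unadjusted p under 0.05 (2.25%, against 3.63% of all genes), Cyp1a1 (0.30, or 0.10 without the array apart) and Cyp2d9 (0.38, or 0.11), and 12 higher (13.5%, against 12.2%) and 4 lower (4.49%, against 8.36%) without overlap.

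Enterocyte markers were also higher in the Mex3a-negative gate of Lgr5-high cells than in the other 2 gates. Their mean was 8.24 and 8.41 in Mex3a-low cells, against 9.95 and 9.88 in Mex3a-negative cells, and all 17 measured markers were lower in Mex3a-low cells (median -1.88). In Mex3a-high cells the mean was 9.20 and 9.10. Paneth cell markers ran the other way: all 5 measured were higher in Mex3a-low cells (median 1.30) and in Mex3a-high cells (median 1.59) relative to Mex3a-negative cells, with 0 called and with 4 and 5 at an unadjusted p under 0.05. All 8 tuft cell markers were positive too, with medians of 0.50 and 1.94 and 0 called. The part of these cell types in the enzyme values was not tested.

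In Lgr5-low cells the Mex3a-low and Mex3a-negative gates gave 0 members called by limma (0.0468% of genes higher), and 0 with the replicate as a block (0.0643%), without the array apart (0.0936%) and in each other alternative. At an unadjusted p under 0.05 there were also 0 members (1.18% of genes). The arrays of 8 members were higher (8.99%, against 14.6% of genes) and those of 12 lower (13.5%, against 15.7%) without overlap. Cyp3a13 lay at 8.22 and 8.68 in Mex3a-high cells, at 8.09 and 7.99 in Mex3a-low cells, and at 9.44 in MR793 and 7.08 in MR820 in Mex3a-negative cells. The Mex3a-negative arrays thus lay on both sides of all others. Cyp3a11, another gene of the family, had the same pattern, with 5.69 and 6.41 in Mex3a-high cells, 5.72 and 5.28 in Mex3a-low cells and 7.02 and 4.94 in Mex3a-negative cells. Cyp3a genes are close paralogs, and their probes may be shared.

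Replicate MR793 lay above MR820 for many of the enzyme genes. In all 6 populations 19 members were higher in MR793 (21.3%), against 4.36% of all genes, and 1 was lower, Gstm5 (1.12%, against 7.04%). Over the 5 populations without Mex3a-high Lgr5-high cells these were 28 members (31.5%, against 9.39%) and 3 members (3.37%, against 10.8%). Among members above the median level 18 of 30 were higher in MR793 over those 5 populations (60.0%), against 13.7% of genes above that level. Each side is a single biological replicate, so no test of a difference between replicates was possible. Strip and replicate were also partly confounded, since strip 2 held arrays of MR820 only.

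The members concerned come from several families: 7 Cyp2, 3 Cyp4, 5 Gst, 2 Sult and 2 Ugt genes were higher in MR793 in all 6 populations. Of the 30 members above the median level, 10 were among them (33.3%, against 5.25% of genes above that level). These were Cyp2, Cyp4 and Gst genes. The 2 Sult and 2 Ugt genes lay below that level, as did Cyp2c37, Cyp2c55, Cyp2d13, Cyp2j9 and Cyp4f15. Sult2a8, for example, differed by only 0.03 to 0.08. Cyp2e1 differed by 1.27 to 2.05 across populations, and Gstm1, a mu-class transferase gene, by 0.47 to 0.81. Gstt1 differed by 0.30 to 1.09 and Gstm3 by 0.49 to 1.99. Gstm5, by contrast, differed by -0.44 to -0.22. The mu-class genes lie in a cluster and are similar in sequence, so probes may be shared, and 2 probe sets of Gstm3 disagreed in sign between Mex3a-high and Mex3a-negative Lgr5-high cells (0.36 and -0.51). A difference between MR793 and MR820 enters the spread of every population in the fit without a block.

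**Figure D4:**
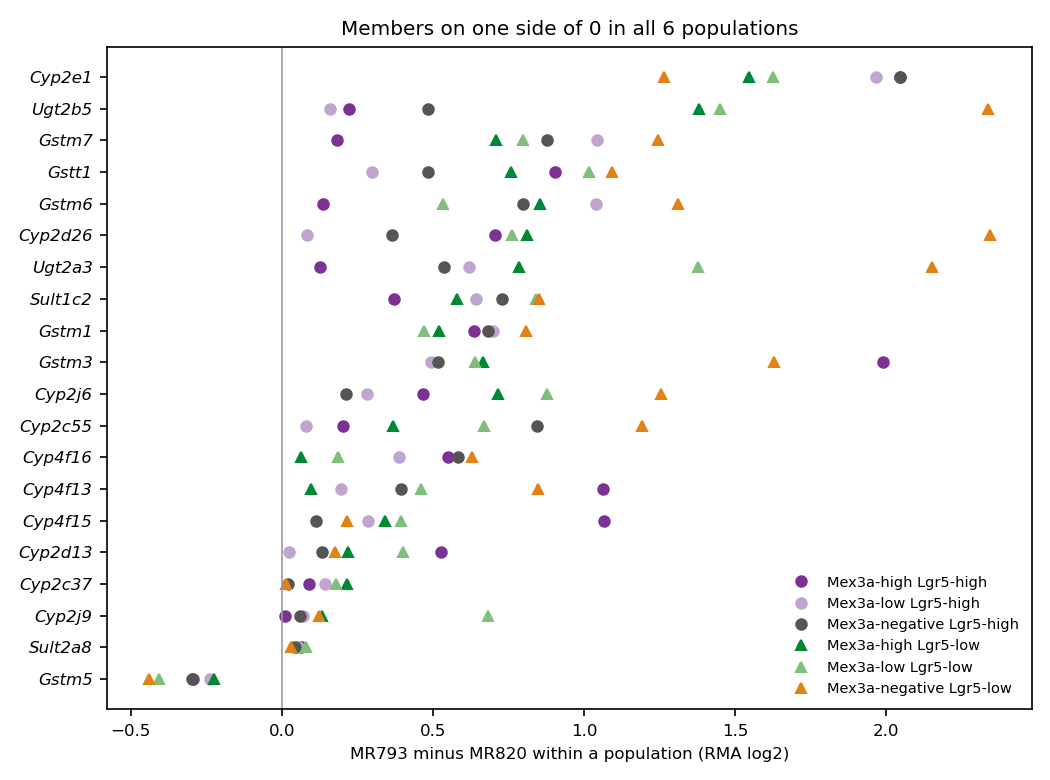
MR793 minus MR820 (log2) in each of the 6 populations for the 20 members with the same sign in all of them, 19 above 0 and Gstm5 below. Each point is the difference of 2 arrays of a population; the differences of Cyp2e1 lie between 1.27 and 2.05.

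The Mex3a-negative Lgr5-low array of MR793 was the highest of the 11 arrays for 38 of 89 members (42.7%), against 12.5% of all genes, and for 24 of the 30 members above the median level (80.0%), against 17.5% of genes above that level. Gsta2 lay at 11.11 on it, against 5.68 to 9.55 on the others. Gsta4 lay at 10.49, Ugt1a6a at 11.69 and Cyp4f14 at 10.11. The enterocyte marker mean was also highest there, at 10.80, against 9.10 on the MR820 array of the same population.

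Genes that act with these enzymes were followed from 4 lists. Of the receptors and regulators that control them, 12 of 14 listed genes were measured and 0 were called in any of the 8 comparisons. Nfe2l2, which encodes the oxidative stress factor Nrf2, had the smallest p of this list between the Lgr5 gates, at -0.62 ± 0.21 (limma adjusted p = 0.267). It differed by -0.42 without the array apart and by -0.02 in a fit with a strip block, and the Mex3a-high pair of MR820 on strip 2 lay at 8.47 in Lgr5-high cells, against 8.25 in Lgr5-low cells. Nfe2l2 differed by -0.74 ± 0.36 (adjusted p = 0.853) between Mex3a-high and Mex3a-negative Lgr5-low cells. At an unadjusted p under 0.05 the list had 1 gene between the Lgr5 gates and 0 in the other 7 comparisons. Nr1h4, the bile acid receptor gene, differed by -0.32 ± 0.19 between the Lgr5 gates, and Rxra, which encodes the partner of many of these receptors, by -0.38 ± 0.23 between Mex3a-high and Mex3a-negative Lgr5-low cells.

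Of the electron donor and cosubstrate genes, 13 of 14 were measured and 0 were called. Between the Lgr5 gates 12 of 13 were lower in Lgr5-high cells, with a median of -0.56, which was -0.22 without the array apart. Ugdh, whose enzyme makes the glucuronic acid donor, differed by -1.01 ± 0.26 (adjusted p = 0.122), and Gclm, a subunit gene of the first enzyme of glutathione synthesis, by -0.55 ± 0.14 (adjusted p = 0.104, and 0.0368 without the array apart). Between Mex3a-high and Mex3a-negative Lgr5-low cells Ugp2 differed by -0.52 ± 0.37 (adjusted p = 0.0392 without the array apart) and Gss by -0.37 ± 0.25. Without that array, Gsr (-0.43, adjusted p = 0.0349) also passed in this comparison and Cyb5b (-0.22, adjusted p = 0.0349) between the Lgr5 gates, 2 genes named after their values were seen.

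Of 25 measured genes of other xenobiotic enzymes, 6 were higher in Lgr5-high than in Lgr5-low cells, with a list median of -0.39 (-0.36 without the array apart). At an unadjusted p under 0.05 there were 13 of the 25 between the Lgr5 gates, against 11.6% of all genes. Among the 25, limma called Mgst3, a membrane-bound glutathione transferase gene. Mgst3 fell by 0.93 in Lgr5-high relative to Lgr5-low cells (SE 0.18, limma adjusted p = 0.0406). It lay at 9.83 to 10.39 on Lgr5-high arrays, against 10.38 to 11.67 on Lgr5-low arrays, which overlap by 1 array. The call was kept in 10 of 21 fits and lost in fits with a strip block (-0.49, adjusted p = 1.00), with quantile normalization applied again (-0.86, 0.0535) and with array weights (0.422), and without any of 8 single arrays. Ephx1, which encodes the microsomal epoxide hydrolase, lay the other way, at 8.91 to 9.30 in Lgr5-high cells, against 8.49 to 8.89 in Lgr5-low cells, without overlap (0.48 ± 0.13, adjusted p = 0.137, and 0.0177 without the array apart). Between Mex3a-high and Mex3a-negative Lgr5-low cells 0 of the 25 were called (3 at an unadjusted p under 0.05), with Adh1, the alcohol dehydrogenase gene, at 0.66 ± 0.19 (adjusted p = 0.200, and 0.0470 without the array apart) and Nqo1, the quinone reductase gene, at -1.22 ± 0.45 (0.491). Mgst1, named after its values were seen, was at -0.88 ± 0.56 and also passed without the array apart (adjusted p = 0.0480).

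Of the 8 efflux transporter genes, 2 were called. Abcc5, which encodes a multidrug resistance-associated pump, lay at 8.51 and 8.44 in Mex3a-high Lgr5-low cells, at 7.53 and 7.67 in Mex3a-low cells and at 7.27 and 7.32 in Mex3a-negative cells. It rose by 1.18 ± 0.18 in Mex3a-high relative to Mex3a-negative Lgr5-low cells (limma adjusted p = 0.00778), and the call was lost without any of the 4 arrays compared (adjusted p 0.0633 to 0.10). Abcc4 differed in the same comparison by 1.09 ± 0.39 (adjusted p = 0.458, or 0.0227 in the fit with a replicate block). Abcc3, a pump gene for glucuronides and bile acids, lay at 7.61 to 8.02 on Lgr5-high arrays, against 8.08 to 9.03 on Lgr5-low arrays, without overlap. It fell by 0.80 in Lgr5-high relative to Lgr5-low cells (SE 0.16, adjusted p = 0.0495), a call kept in 9 of 21 fits. It was lost in fits with a strip block (-0.73, adjusted p = 1.00), with quantile normalization applied again (-0.70, 0.105) and with array weights (0.431), and without any of 9 single arrays.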

How the data were processed

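Gene expression was measured on 12 Affymetrix arrays, 2 for each of 6 sorted populations of mouse small intestine. The values are log2 RMA signals that the authors deposited. The submitters' processing notes name RMA and give no version. Of 45141 probe sets, 28898 name a single gene in the platform annotation, 551 name several and were left out, and the brightest probe set stood for each of 17097 genes.

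Population means were fitted over all genes with limma 3.58.1 (R 4.3.3; lmFit and eBayes with trend), with Benjamini-Hochberg adjusted p-values over all genes for each of 8 comparisons. Tables and figures were made with Python 3.11.15, pandas 2.3.3 and matplotlib 3.10.9, and the fit was tested on simulated data. The members and lists were chosen with earlier results of these data known. Named genes are the called members, the 3 with the highest mean in each family, and those with the largest differences of the same sign in both replicates (10 each way for Mex3a-high against Mex3a-negative in Lgr5-low cells and for the Lgr5 gates, 3 each way elsewhere), plus the called or 2 smallest-p genes of the other lists.

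Alternatives were the replicate or the array strip as a block, arrays centred on a common median, quantile normalization applied again, genes above the median level, the mean of all probe sets of a gene, array weights, arrays of the same Lgr5 gate, and each array left out. The array weights were equal for the 2 arrays of each population, at 0.08 for both Mex3a-high Lgr5-high arrays. They therefore did not single out the array apart but gave little weight to its whole population, which enters the Lgr5 difference. The same replicate number marks the same biological replicate in the labels. In the check of this pairing, deviations from population means correlated at over 0.1 in 14 of 15 pairs of populations (lowest -0.115, median 0.382), and at 0.374 or more in the 10 pairs without Mex3a-high Lgr5-high cells. The strips can enter these correlations too, since no MR793 array lay on strip 2. The number of arrays limits the precision. The median residual SD was 0.220 with all arrays and 0.116 without the array apart.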

Additional observations from a re-analysis of the deposited data

How the results depend on the processing

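Each comparison has 2 arrays a population, which limits the calls. With the replicate block, 2 members were called between Mex3a-high and Mex3a-negative Lgr5-low cells in place of 1, 1 in place of 0 between Mex3a-high and Mex3a-low Lgr5-low cells, and 3 in place of 0 between the Lgr5 gates. The block changed no other count of called members. Array weights gave 2 and 1 in the first 2 of these comparisons (5.44% and 2.7% of all genes), the strip as a block 2 in the first (1.9%), and arrays centred on a common median 1 between the Lgr5 gates (1.54%). The replicate block without the array apart, chosen after seeing the data, gave 9, 3 and 14 in the same 3 comparisons (11.9%, 5.23% and 11.4% of all genes) and 3 for the difference between gates (1.81%). Leaving out 1 array at a time gave 0 to 2 members for Mex3a-high against Mex3a-negative and 0 to 1 for Mex3a-high against Mex3a-low Lgr5-low cells, 0 to 37 for the Lgr5 gates, 0 to 29 for the difference between gates, and, in Lgr5-high cells, 0 to 37 for Mex3a-high against Mex3a-negative and 0 to 33 for Mex3a-high against Mex3a-low. The values 37, 29, 37 and 33 arose without the MR820 array of Mex3a-high Lgr5-high cells, in fits that called 54.5%, 48.6%, 62.3% and 60.7% of all genes. That leaves the array apart alone in its population, where it is assumed to vary like the others. The causes of the other changes were not tested.

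The signs of the Lgr5 difference turned with the strip as a block for Cyp2a5 (-0.26), Cyp2c23 (-0.13), Cyp2d34 (-0.24), Cyp4f13 (-0.0749) and Sult5a1 (-0.11). The strip block also turned Cyp2b13 (-0.0152) and Cyp2d9 (-0.0107) between Mex3a-high and Mex3a-negative Lgr5-low cells, Gstm1 (-0.0883) between Mex3a-low and Mex3a-negative Lgr5-high cells, and Ugt2a3 (-0.0357) in the difference between gates. The added alternative turned Cyp1a2 (-0.0045) between Mex3a-high and Mex3a-negative, and Ugt2b5 (0.27) between Mex3a-high and Mex3a-low Lgr5-high cells. With 1 array left out, signs turned in Lgr5-low cells between Mex3a-high and Mex3a-negative for Cyp2e1 (-0.555 to 0.991), Gstm6 (-1.17 to 0.144), Sult1b1 (-1.30 to 0.0626), Sult1d1 (-1.74 to 0.352), Ugt2a3 (-1.94 to 0.21) and Ugt2b5 (-2.06 to 0.274). Between Mex3a-low and Mex3a-negative Lgr5-low cells they turned for Cyp2e1 (-0.583 to 1.04), Cyp3a25 (-2.11 to 0.123), Cyp4b1 (-0.0827 to 1.5), Gsta4 (-1.75 to 0.134), Gstt1 (-0.0738 to 1.02) and Ugt2b5 (-1.95 to 0.386). In Lgr5-high cells they turned for Cyp2d34 (-0.0164 to 1.42) and Cyp4f13 (-0.127 to 0.936) between Mex3a-high and Mex3a-negative, Gstm1 (-0.108 to 0.591) between Mex3a-low and Mex3a-negative, and Gstm3 (-0.108 to 1.88) between Mex3a-high and Mex3a-low. In the difference between gates they turned for Cyp2j6 (-0.0382 to 1.22) and Ugt2a3 (-0.572 to 1.58). Of the 92 differences of named genes, the alternatives other than leaving out 1 array gave 709 values with the same sign and side of the threshold, 41 that newly passed, 6 that no longer passed (Mgst3 and Abcc3 between the Lgr5 gates) and 11 that changed sign.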

Other observations

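The levels of the regulators of these enzymes differed in how far they ran over the 12 arrays. Hnf4a, which encodes a nuclear factor of the absorptive epithelium, lay at 11.95 to 12.26. Nr1i2, the gene of the xenobiotic receptor PXR, lay at 8.78 to 9.33, and Ahr, the gene of the aryl hydrocarbon receptor, at 6.99 to 8.11. Nr1i3, the gene of the receptor CAR, lay at 5.59 to 7.71, and Ahrr, the repressor that the aryl hydrocarbon receptor induces, at 4.80 to 5.5. These 5 genes were named after their values were seen.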
